A study of Mus musculus with 6 samples.

Results

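The genes described here are 10 cytosolic heat shock proteins of the mouse, Hspa1a, Hspa1b, Hspa8, Hsp90aa1, Hsp90ab1, Hsph1, Dnajb1, Hspb1, Hspb6 and Hspb7, chosen by name from the 49315 genes of the count table. All 10 were found by Ensembl identifier, and all 10 had enough counts to be tested. Bulk RNA sequencing had been run on total RNA of C57BL/6 mouse hearts, 3 of them wild-type and 3 with a conditional knock-in of the Txnip C247S mutant. Txnip encodes the thioredoxin-interacting protein, and the mutant replaces a cysteine of that protein with serine. The labels name MerCreMer, a Cre recombinase that 4-hydroxytamoxifen activates, and 4-hydroxytamoxifen itself as the treatment for both genotypes. They do not say which promoter drove the recombinase or whether the wild-type hearts carried it, and they give no age or sex. The labels do not state which mice shared a litter or a day. The p-values set the difference between genotypes against the spread between these hearts. A litter or day shared within a genotype cannot be told apart from the genotype.

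Heat shock proteins are chaperones, which bind unfolded or ageing proteins and help them to fold, to assemble or to be degraded. Hsp70 proteins hold and release short stretches of unfolded chain in a cycle driven by ATP, J-domain proteins such as Dnajb1 bring them their clients, and Hsp110 proteins such as Hsph1 exchange their nucleotide. Hsp90 proteins act later, on kinases, hormone receptors and myosin. Small heat shock proteins use no ATP and keep proteins from clumping, and muscle makes several of them at high levels. The transcription factor Hsf1 switches on the inducible members when proteins unfold, by binding heat shock elements, in which GAA repeats alternate in direction.

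Txnip was lower in all knock-in hearts, with 724, 791 and 741 CPM (counts scaled to the size of the library) in the wild-type hearts and 438, 391 and 429 CPM in the knock-in hearts (log2 fold change −0.84 ± 0.09 SE, edgeR adjusted p = 0.00379). Txnip did not pass when wild-type replicate 2 (−0.80, adjusted p = 0.0525) or knock-in replicate 3 (−0.86, adjusted p = 0.0642) was left out. A count of the gene does not read the edited base. Library totals ran from 14146048 to 15620476 counts, and a count of 3, taken as the floor of detection, equals 0.192 to 0.212 CPM. One heart of each genotype stood apart from its group. A chi-square comparison of counts over all genes gave 6.70 per degree of freedom between wild-type replicates 1 and 2, but at least 19.0 between either of these and wild-type replicate 3. Between knock-in replicates 1 and 3 it gave 6.996, but 25.1 and 14.01 for knock-in replicate 2 against each of them. Among the 12777 genes tested, 22.0% were highest of their genotype in both wild-type replicate 3 and knock-in replicate 2, and 22.6% were lowest in both. The first of these hearts also had the highest share of mitochondrially encoded counts, 28.0% against 22.9% to 24.3% in the others.

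Promoter sequence is shown for 5 genes that respond to stress, Hspa1a, Hspa1b, Hspb1, Dnajb1 and Hsph1, because heat shock elements are the sites through which Hsf1 acts. RefSeq windows of the build GRCm38.p6, from 250 bases before to 50 bases after an annotated start, were present for 7 of the 10 genes (not Hspa8, Hsp90aa1 and Hsp90ab1), with 10 starts in all. The windows were searched on both strands for a pair of repeats, GAANNTTC or TTCNNGAA, and for a longer run, in which one more repeat follows the pair at the same spacing and in the opposite direction. The longer run contains overlapping pairs. Only exact letters were counted, and repeats with a mismatch were not searched for, so a window without a match may still hold imperfect repeats. At least 1 pair was found in 15.1% of all 32851 windows and the longer run in 0.603% of them. Of the 7 members, 5 held a pair in at least 1 window (Hspa1a, Hspa1b, Hsph1, Hspb1 and Hspb6), and 1, Hsph1, held the longer run. These are counts of genes, some with 2 starts, while the shares above are of windows. The nearly identical Hspa1a and Hspa1b are counted separately. Counted by gene, 18 of 82 genes with a window in the related chaperone lists described below held a pair. Each match describes the letters of the window and shows no binding. The 250 bases before the start are printed 5′ to 3′ on the gene's strand for Hspa1a (chr17:34972157-34972406, minus strand), Hspa1b (chr17:34959239-34959488, minus strand), Hspb1 (chr5:135887669-135887918, plus strand) and Dnajb1 (chr8:83607925-83608174, plus strand, the first of its 2 starts). Capitals mark the pairs of repeats.
Hspa1a: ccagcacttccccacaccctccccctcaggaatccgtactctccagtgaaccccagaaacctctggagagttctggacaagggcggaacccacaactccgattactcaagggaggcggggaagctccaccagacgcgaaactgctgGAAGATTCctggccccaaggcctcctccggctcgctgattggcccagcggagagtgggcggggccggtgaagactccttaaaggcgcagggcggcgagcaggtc
Hspa1b: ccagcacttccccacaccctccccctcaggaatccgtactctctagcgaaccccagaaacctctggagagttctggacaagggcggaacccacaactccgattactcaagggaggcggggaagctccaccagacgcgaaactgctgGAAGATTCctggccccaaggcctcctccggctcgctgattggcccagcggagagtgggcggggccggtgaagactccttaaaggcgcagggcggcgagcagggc
Hspb1: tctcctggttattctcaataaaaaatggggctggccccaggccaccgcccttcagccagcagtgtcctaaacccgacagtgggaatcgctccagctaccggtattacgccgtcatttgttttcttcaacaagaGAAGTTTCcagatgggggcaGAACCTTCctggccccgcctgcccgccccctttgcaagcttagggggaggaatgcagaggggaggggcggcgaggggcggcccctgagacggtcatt
Dnajb1: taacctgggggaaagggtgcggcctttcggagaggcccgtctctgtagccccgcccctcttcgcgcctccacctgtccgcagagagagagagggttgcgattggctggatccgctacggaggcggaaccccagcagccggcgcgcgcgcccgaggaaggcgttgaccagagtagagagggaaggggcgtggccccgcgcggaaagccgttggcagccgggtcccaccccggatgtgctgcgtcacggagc
The Hspa1a and Hspa1b sequences were identical at 247 of 250 bases, and each had 1 pair of repeats beginning 104 bases before the start. Hspb1 had 2 pairs, beginning 117 and 97 bases before its start. No exact match was found in either Dnajb1 window or for Hspb7. In Hsph1 a pair lay 54 bases before the more downstream of its 2 annotated starts (chr5:149636352-149636379, minus strand), and the longer run began 16 bases after that start (chr5:149636280-149636308, minus strand). The GENCODE annotation has Hsph1 begin further upstream, at 149636376, so by that annotation the capitals of both sites lie within the gene.
Hsph1 pair: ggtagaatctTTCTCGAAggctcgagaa
Hsph1 longer run: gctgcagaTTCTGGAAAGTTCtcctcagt

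None of the 10 genes passed the test between the genotypes. By edgeR's quasi-likelihood test 0 of 10 had an adjusted p under 0.05, beside 0.297% of all tested genes (0.110% higher and 0.188% lower). DESeq2 and limma-voom also called 0 members, beside 0.969% and 0.141% of the genes they tested. At an unadjusted p under 0.05 there were 2 members, Hspa8 and Dnajb1, both with higher values in the knock-in hearts, beside 9.97% of all tested genes. In both genes the lowest knock-in heart exceeded the highest wild-type heart, a separation upward that 8.12% of tested genes showed. Separation downward was found in 0 members and in 7.99% of tested genes, which makes 16.1% in either direction. The log2 fold changes (knock-in over wild-type) were positive for 5 members and negative for 5, with a median of −0.018, and the median over all tested genes was −0.0068. Fitted without a filter on low counts, Dnajb1 was called (log2 fold change 0.57, edgeR adjusted p = 0.0168), in a fit that called 1.46% of 21655 genes.

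**Figure D1:**
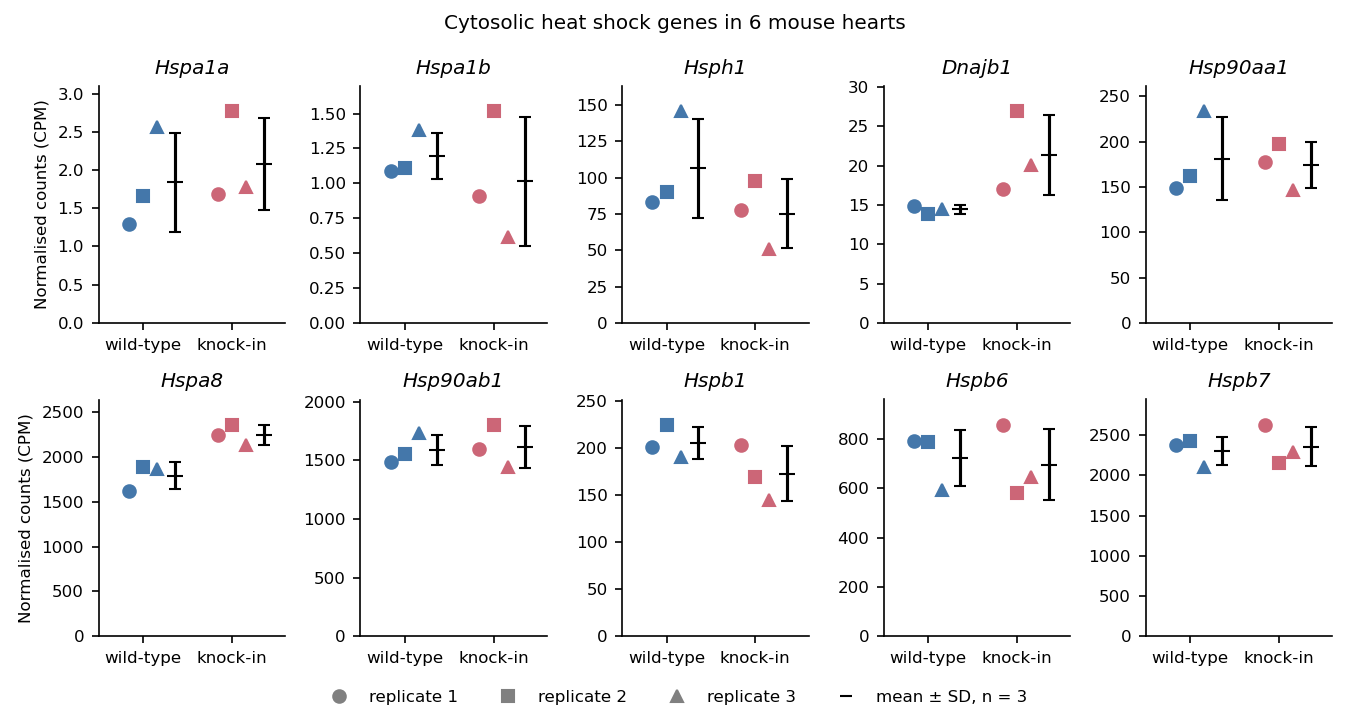
Normalised counts (CPM, vertical axis from 0) of the 10 heat shock genes in each of the 6 hearts, by genotype, with symbols for the replicate and black bars for the mean ± SD of 3 hearts. Dnajb1 and Hspa8 have no overlap between genotypes, and Hsph1 runs from 50.6 CPM in knock-in replicate 3 to 146 CPM in wild-type replicate 3.

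Hspa1a and Hspa1b, the pair of stress-inducible Hsp70 genes, had low counts in every heart. Hspa1a (ENSMUSG00000091971, chromosome 17, 34969190 to 34972156, GRCm38) had wild-type counts of 19, 24 and 37 and knock-in counts of 26, 42 and 26, which is 1.30, 1.66 and 2.56 against 1.69, 2.77 and 1.77 CPM. Hspa1b (ENSMUSG00000090877, chromosome 17, 34956436 to 34959238) had wild-type counts of 16, 16 and 20 and knock-in counts of 14, 23 and 9. Wild-type replicate 3 and knock-in replicate 2 were the highest hearts of their genotypes for both genes, and the genotypes overlapped. Their log2 fold changes were 0.18 ± 0.32 and −0.23 ± 0.37 (SE, 95% interval −0.54 to 0.89 and −1.06 to 0.59). Both intervals include 0, and the smallest difference detectable at such counts was not computed. Both signs turned when single hearts were left out. Each gene is annotated with 1 exon, and 63.8% of the 31-base words of the Hspa1a transcript also occur in Hspa1b, so reads may be split or lost between them. Summed as 1 gene, the pair had a log2 fold change of 0.03. A gene on the opposite strand, Gm20481, overlaps 19.0% of the Hspa1a exon, and whether the counting used strand is not given in the sources used here.

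Hsph1, the Hsp110 protein that recharges Hsp70, differed more between single hearts than any other of the 10 genes. Its values (ENSMUSG00000029657, chromosome 5, 149614287 to 149636376) were 83.4, 90.4 and 146 CPM in the wild-type and 77.4, 97.6 and 50.6 CPM in the knock-in hearts. The highest heart, wild-type replicate 3, stood 2.88 times above the lowest, knock-in replicate 3, a span that 6.33% of tested genes exceeded. The biological coefficient of variation fitted for Hsph1 was 24.5%, and that of the median tested gene 13.6%. The genotypes overlapped, with a log2 fold change of −0.50 ± 0.28 (SE, 95% interval −1.17 to 0.16, edgeR adjusted p = 0.640). Leaving out wild-type replicate 3 gave −0.21 and leaving out knock-in replicate 3 gave −0.28, while dropping knock-in replicate 2 gave −0.73. With both wild-type replicate 3 and knock-in replicate 2 left out it was −0.43 (edgeR adjusted p = 0.281). None of the words of its transcript occur in another gene.

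Dnajb1, the inducible J-domain partner of Hsp70, had higher values in every knock-in heart. Its levels (ENSMUSG00000005483, chromosome 8, 83608193 to 83612653) were 14.9, 13.9 and 14.5 CPM in the wild-type and 17.0, 26.9 and 20.1 CPM in the knock-in hearts. The wild-type hearts lay close together, with an SD of 0.515 CPM, while the knock-in hearts had an SD of 5.06 CPM, with knock-in replicate 2 the highest. The log2 fold change was 0.56 ± 0.17 (SE, 95% interval 0.20 to 0.93), a 1.48-fold difference, with an edgeR adjusted p of 0.250. Leaving out knock-in replicate 2 gave 0.37, and leaving out both that heart and wild-type replicate 3 gave 0.37 with an adjusted p of 0.162.

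Hsp90aa1, the inducible cytosolic Hsp90, had 149, 162 and 233 CPM in the wild-type and 178, 197 and 147 CPM in the knock-in hearts (ENSMUSG00000021270, chromosome 12, 110690605 to 110702728). The genotypes overlapped, and wild-type replicate 3 was again the highest heart. The log2 fold change of −0.06 ± 0.17 (95% interval −0.45 to 0.33) was 0.16 without wild-type replicate 3 and 0.05 without knock-in replicate 3. Of its words, 62.9% occur in other genes, chiefly in Gm12346, a processed pseudogene with 5 to 15 counts per heart.

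Hspa8, the constitutive Hsp70 that folds new proteins and uncoats clathrin vesicles, ranked 40 among all tested genes by mean CPM and had higher values in each knock-in heart. Its levels (ENSMUSG00000015656, chromosome 9, 40800984 to 40810087) were 1618, 1886 and 1865 CPM in the wild-type and 2242, 2354 and 2127 CPM in the knock-in hearts. The lowest knock-in heart exceeded the highest wild-type heart. The difference was 1.25-fold (log2 fold change 0.32 ± 0.09 SE, 95% interval 0.12 to 0.53), with an unadjusted p of 0.00585 and an edgeR adjusted p of 0.247. It was 0.26 to 0.36 when single hearts were left out. With both wild-type replicate 3 and knock-in replicate 2 left out it was 0.32 with an edgeR adjusted p of 0.0547, in a fit that called 3.04% of 12881 genes. Pseudogenes copy much of this transcript. Gm15459 holds 51.7% of its words and had 79 to 114 counts per heart, against 23737 to 35738 for Hspa8, and how many shared reads were dropped was not measured.

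Hsp90ab1, the constitutive Hsp90, had the log2 fold change closest to 0 of the 10 genes. It stood at 1486, 1554 and 1734 CPM in the wild-type and at 1593, 1802 and 1447 CPM in the knock-in hearts (ENSMUSG00000023944, chromosome 17, 45567775 to 45573271). Within each genotype the hearts came in the order they had for Hsph1, but the highest stood only 1.25 times above the lowest. The log2 fold change was 0.02 ± 0.11 (95% interval −0.21 to 0.25), and it was −0.019 when counts were scaled by library size alone.

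**Figure D2:**
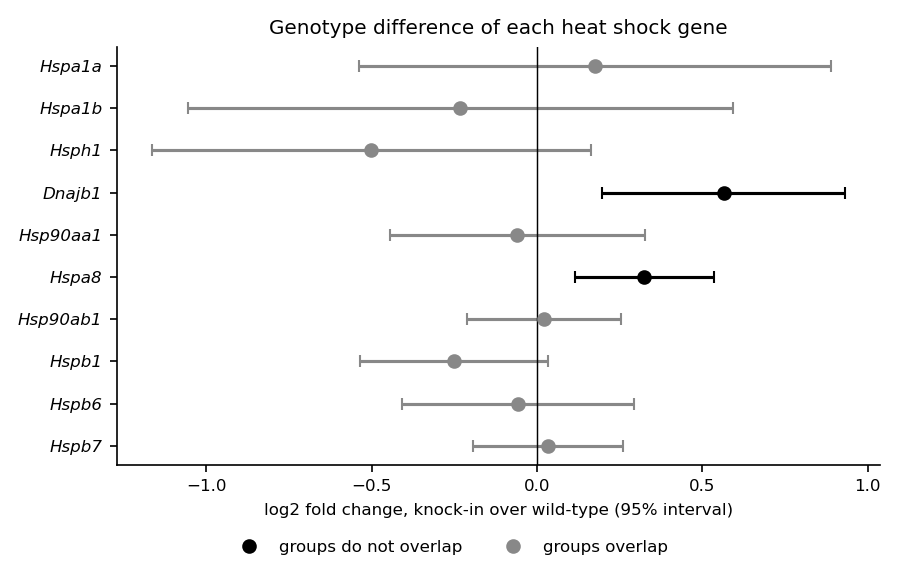
The log2 fold change (knock-in over wild-type, horizontal axis) of each heat shock gene with its 95% interval from the edgeR fit, not adjusted for the number of genes. The intervals of Dnajb1 (0.20 to 0.93) and Hspa8 (0.12 to 0.53), drawn in black because their groups do not overlap, lie above 0, and the other 8 include 0.

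The ratio of inducible to constitutive forms within a library does not depend on scaling. Counts of Hspa1a and Hspa1b together amounted to 0.147%, 0.147% and 0.212% of those of Hspa8 in the wild-type and to 0.116%, 0.182% and 0.112% in the knock-in hearts. The mean log2 ratio was −9.23 ± 0.30 in wild-type and −9.55 ± 0.39 in knock-in hearts (SD, n = 3). For this difference of −0.32 an exact two-sided permutation test gave p = 0.3 (0.6 adjusted over the 2 ratios). The difference was −0.13 with Hspa1a alone over Hspa8 (exact permutation p = 0.6) and −0.65 with Hspa1b alone (exact permutation p = 0.2). In the edgeR fits Hspa8 had a log2 fold change of 0.32 and the summed pair one of 0.03, so the difference of −0.32 lay mainly in Hspa8. Counts of Hsp90aa1 as a share of those of Hsp90ab1 were 10.02%, 10.4% and 13.5% for the wild-type hearts and 11.2%, 10.9% and 10.1% for the knock-in hearts, with wild-type replicate 3 the highest. That log2 ratio differed by −0.06 (exact permutation p = 0.9, adjusted 0.9). With 3 hearts against 3 the smallest p this test allows is 0.1.

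None of the 3 small heat shock proteins had separate genotypes, and Hspb6 and Hspb7 shared their lowest hearts. Hspb1 (Hsp25, which caps and steadies actin filaments) had 201, 224 and 190 CPM in the wild-type and 203, 169 and 145 CPM in the knock-in hearts (ENSMUSG00000004951, chromosome 5, 135887919 to 135889563). Its log2 fold change was −0.25 ± 0.13 (95% interval −0.54 to 0.03, edgeR adjusted p = 0.570), and the genotypes overlapped through knock-in replicate 1. Of its words, 56.7% occur in the pseudogene Hsp25-ps1, which had 7 to 33 counts per heart.

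Hspb6 (Hsp20, a target of protein kinase A in muscle) had 791, 788 and 594 CPM in the wild-type and 857, 582 and 648 CPM in the knock-in hearts (ENSMUSG00000036854, chromosome 7, 30552178 to 30555443). The lowest hearts were wild-type replicate 3 and knock-in replicate 2, each the highest of its genotype for Hsph1. Hspb7 (cvHsp, a small heat shock protein of heart and skeletal muscle) showed the same lowest hearts, with 2380, 2433 and 2104 CPM in the wild-type and 2628, 2154 and 2296 CPM in the knock-in hearts (ENSMUSG00000006221, chromosome 4, 141420779 to 141425311). The log2 fold changes were −0.06 ± 0.16 for Hspb6 and 0.03 ± 0.10 for Hspb7 (95% intervals −0.41 to 0.29 and −0.19 to 0.26), and both changed sign when single hearts were left out.

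The same hearts were high or low for several of the 10 genes. In 5 members (Hspa1a, Hspa1b, Hsph1, Hsp90aa1 and Hsp90ab1) wild-type replicate 3 and knock-in replicate 2 were each the highest of their genotype, an arrangement found in 22.0% of all tested genes. In 2 members, Hspb6 and Hspb7, they were each the lowest, as in 22.6% of tested genes. The mean of the 5 inducible members (Hspa1a, Hspa1b, Hsph1, Dnajb1 and Hsp90aa1), as log2 CPM relative to all 6 hearts, was 0.33 in wild-type replicate 3 and 0.39 in knock-in replicate 2. Wild-type replicates 1 and 2 had −0.20 and −0.10, and knock-in replicates 1 and 3 had −0.10 and −0.32. Dnajb1 alone of these 5 was below 0 in wild-type replicate 3, at −0.26, and it had 0.63 in knock-in replicate 2. For the 3 small heat shock proteins the mean in those 2 hearts was below 0, at −0.12 and −0.18, but it was also low in knock-in replicate 3, at −0.17. Wild-type replicate 3 and knock-in replicate 2 also stood apart over all genes, and the part of that in these values was not tested.

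**Figure D3:**
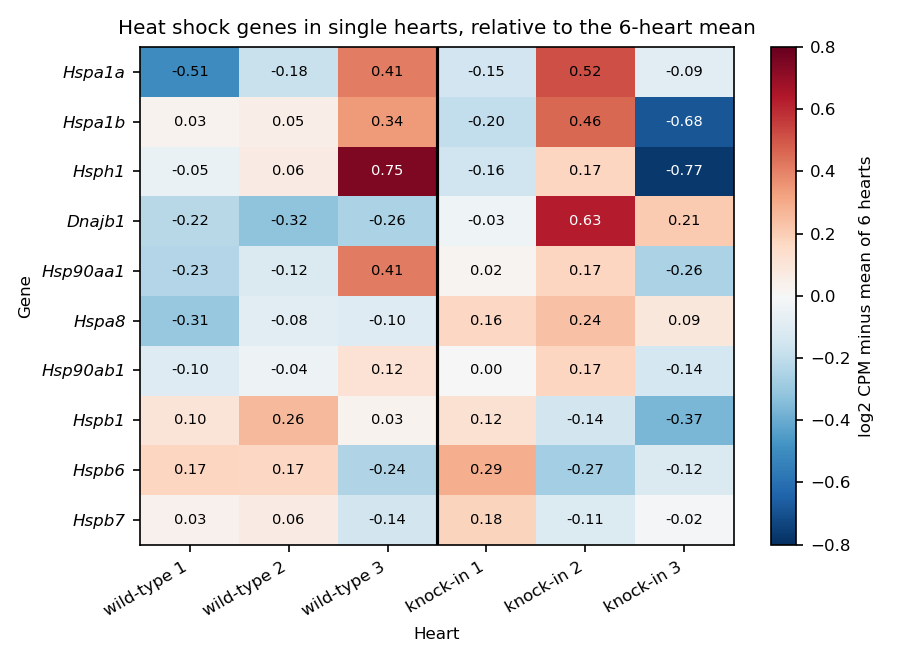
Each cell gives the log2 CPM of a gene in a heart minus its mean over the 6 hearts, with hearts on the horizontal axis, genes on the vertical axis and red for higher values. Wild-type replicate 3 and knock-in replicate 2 are above 0 in Hspa1a, Hspa1b, Hsph1, Hsp90aa1 and Hsp90ab1 and below 0 in Hspb6 and Hspb7.

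Compared per length, as TPM (counts divided by the summed exon length and scaled to a fixed total), the 10 genes spanned a wide range of levels. Hspb7 was the most abundant at 1802 ± 150 TPM (SD, n = 6 hearts). Hsp90ab1 (1142 ± 91.5 TPM) and Hspa8 (1001 ± 129 TPM) followed and overlapped each other, and their order turned when the longest transcript served as the length. Next came Hspb6 at 661 ± 110, Hspb1 at 392 ± 59.7 and Hsp90aa1 at 96.5 ± 17.2 TPM, each without overlap with the next lower gene. Hsph1 (26.7 ± 9.04 TPM) and Dnajb1 (11.9 ± 3.28 TPM) overlapped, as did Hspa1a (1.41 ± 0.404 TPM) and Hspa1b (0.842 ± 0.245 TPM) at the lower end. Reads shared with copies may be missing from these levels. Together the 10 genes took 0.683% to 0.730% of all counts in the wild-type and 0.685% to 0.767% in the knock-in hearts.

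Relatives of the 10 genes, their partners and the heat shock factors were taken from 7 lists. The lists follow families and partners, and not every protein in them is cytosolic. They hold 74 genes, of which 70 were tested. Of these, edgeR called 0 and DESeq2 called 0, beside 0.297% and 0.969% of all the genes each tested. At an unadjusted p under 0.05 in edgeR 6 were higher and 3 lower, which is 12.9% of the 70 beside 9.97% of all tested genes. Their median log2 fold change was −0.012, and that of all tested genes −0.0068. Hsf1, the regulator of the inducible members, had 26.2, 26.3 and 24.2 CPM in the wild-type and 27.3, 19.7 and 19.9 CPM in the knock-in hearts. The genotypes overlapped for Hsf1 (log2 fold change −0.20 ± 0.14 SE, edgeR adjusted p = 0.730). Of the 4 tested genes in the list of heat shock factors the smallest p was that of Hsbp1, which binds Hsf1, with a log2 fold change of 0.24 ± 0.10 (edgeR adjusted p = 0.466).

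Among other Hsp70 and Hsp110 genes, 0 of 8 were called, and Hspa4l, a relative of Hsph1, had the smallest p. It stood at 61.9 ± 13.3 CPM in wild-type and 45.0 ± 5.86 CPM in knock-in hearts (SD, n = 3, log2 fold change −0.46 ± 0.16 SE, edgeR adjusted p = 0.335). Of 12 other J-domain genes, 4 had positive and 8 negative log2 fold changes with a median of −0.06, led by Dnajc8 at 0.32 ± 0.10. Among the 7 nucleotide exchange and BAG genes Bag5 led with 0.32 ± 0.14. Of 20 co-chaperones of Hsp90 and Hsp70, 15 had negative values with a median of −0.07, and Ahsa2, an activator of the Hsp90 ATPase, had −0.36 ± 0.12 (edgeR adjusted p = 0.344).

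Hspb3, a muscle small heat shock protein outside the 10 genes, had the smallest adjusted p of these lists, 0.165 in edgeR. It stood at 7.14 ± 0.718 CPM in the wild-type and 11.2 ± 1.33 CPM in the knock-in hearts, without overlap (log2 fold change 0.65 ± 0.16 SE). Cryab, the most abundant gene of that list, had −0.02 ± 0.11. In the cytosolic chaperonin and prefoldin list, 11 of 14 genes had positive values with a median of 0.04, and Pfdn5, a prefoldin subunit, had 0.41 ± 0.11 (edgeR adjusted p = 0.225). The single-heart arrangement of Hsph1, highest in wild-type replicate 3 and in knock-in replicate 2, was found in 7 of 12 other J-domain genes, 4 of 8 other Hsp70 and Hsp110 genes and 8 of 20 co-chaperones, beside 22.0% of all tested genes. It was found in 0 of 5 genes listed with the other small heat shock proteins, 2 of 14 chaperonin genes, 1 of 7 nucleotide exchange and BAG genes and 1 of 4 heat shock factors. The lists of endoplasmic reticulum and mitochondrial chaperones showed it too, in 6 of 12 and 2 of 10 genes.

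**Figure D4:**
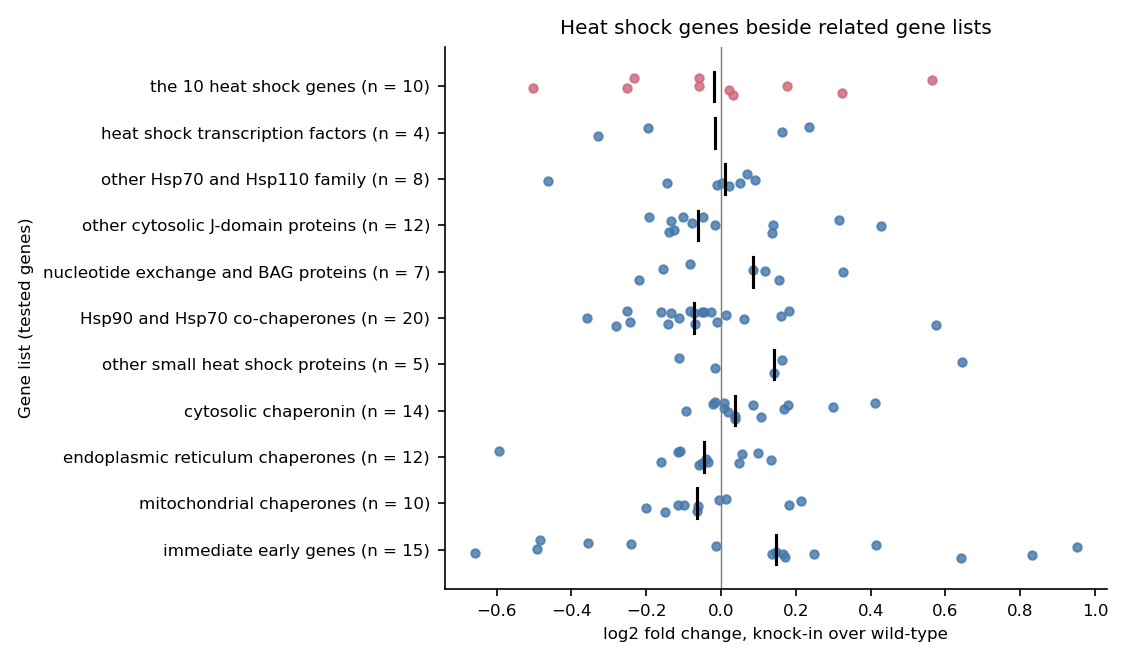
The log2 fold change (knock-in over wild-type, horizontal axis) of every tested gene in the 10 heat shock genes (red) and in 10 related lists (blue), among them chaperones of other compartments and immediate early genes, with black bars for list medians. The medians lie between −0.07 and 0.15, and no gene drawn passed the test.

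Genes were sought whose heart-to-heart profile was most like the mean of the 5 inducible members, from which Dnajb1 departed in wild-type replicate 3. The search covered 7468 tested genes with a mean of at least 10 CPM. The 5 with the highest Pearson correlation over the 6 hearts were Elp3 (r = 0.996), Filip1 (0.994), Usp13 (0.992), Hif1an (0.991) and Tmem167b (0.990). Spearman's rho was 0.943 for each of them except Hif1an, with 0.886. Of the 7468 genes searched, 230 had r above 0.9, and no p was computed for any of them. With 6 hearts such values only describe the shared high values of wild-type replicate 3 and knock-in replicate 2. Filip1, for example, had 35.0, 38.0 and 52.2 CPM in the wild-type and 36.5, 52.0 and 33.1 CPM in the knock-in hearts.

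The tissue label was checked against markers. All 8 cardiomyocyte markers were tested, and their summed level ran from 66683 to 68831 CPM in the wild-type and from 73286 to 78308 CPM in the knock-in hearts. Only Myl2 was called in that list, as higher, and without it the sums overlapped, at 55564 to 58330 against 57486 to 63152 CPM. Of the atrial markers 2 of 5 were tested and 0 called, with Nppa at 103 to 573 CPM, Myl4 at 2.01 to 3.25 CPM and Myl7, Sln and Bmp10 each at 0.346 CPM or less. Of the skeletal muscle markers 4 of 8 were tested and 0 called. Acta1 and Ckm, which heart also expresses, ran from 130 to 1225 CPM and from 2733 to 3536 CPM, the other 6 genes were at most 1.70 CPM, and Myh2 had 0 counts in every heart. The 6 red blood cell markers, all of them called higher, summed to 487 to 664 CPM in the wild-type and 1492 to 1961 CPM in the knock-in hearts.

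Macrophage markers summed to 315 to 364 CPM in the wild-type and 239 to 254 CPM in the knock-in hearts, with 1 of 8, Lyz2, called lower. Without Lyz2 these sums were 149 to 182 against 130 to 134 CPM. Smooth muscle markers summed to 662 to 727 against 569.5 to 588 CPM, with 1 of 8, Acta2, called lower. The 7 others overlapped, at 480.3 to 550.2 against 476 to 516 CPM. Of the endothelial and fibroblast markers 0 of 8 each were called. Of the 6 fits that leave out 1 heart, the calls of Myl2, Lyz2 and the red cell gene Bpgm were lost in 5. Those of Alas2 were lost in 3, of Hbb-bt in 2 and of Hbb-bs in 1, and those of Hba-a1, Hba-a2 and Acta2 in 0. The red cell markers, like Hspa8 and Dnajb1, had higher values in each knock-in heart than in any wild-type heart, and the part of cell composition in the values of these 2 genes was not tested. In bulk tissue, more cells of a type and more RNA per cell cannot be told apart.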

How the data were processed

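The authors deposited 1 table of raw whole-number counts of reads per gene for 6 hearts. Per the labels' protocols, RNeasy columns gave the RNA and NEBNext Ultra II RNA reagents the libraries. STAR, featureCounts, Subread 1.5.2, DESeq2 and GRCm38.p6 appear in the submitters' processing notes without roles. How reads with several matches were handled, which strand setting was used and which annotation release served is not given in the sources used here. Names, positions and exon lengths came from GENCODE M21 (GRCm38), which held 49056 of 49315 identifiers.

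Columns were matched to samples by their descriptions. Replicates were numbered in accession order, which pairs nothing. Counts of replicates differed by more than sampling noise, so each library is 1 replicate. The whole table was fitted with edgeR 4.0.16 (R 4.3.3): filterByExpr, TMM scaling, a robust glmQLFit and glmQLFTest for genotype, with Benjamini-Hochberg adjustment over all 12777 genes tested and no covariate. Called means an adjusted p under 0.05. The SE comes from the log2 fold change over the root of its F value, and 95% intervals use the t distribution of the fit. CPM are TMM-scaled, and centred log2 CPM use a prior count of 2. Counting floors cover counting error only, as reads carry no molecular identifiers. Ratios were compared by exact permutation over the 20 arrangements of hearts. Shared sequence is the share of 31-base words of the longest transcript found in other genes on either strand. The fit was tested on simulated data.

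The text names all 10 members, Txnip, in each related list the called genes or the 1 with the smallest p, and the 5 genes most like in profile. Hsf1, Cryab and the marker genes, and those of the closing section outside this rule, were chosen after their values were seen. The members and lists were chosen with earlier results of these data known. Alternatives were scaling by RLE, upper quartile or library size, leaving out the filter or asking for a mean of 1 CPM or more, no robust estimation, DESeq2 1.42.0, limma-voom (limma 3.58.1), mitochondrial genes left out, the Hspa1 pair summed or (for the ratio) each gene of it alone, and each library left out. Leaving out wild-type replicate 3 and knock-in replicate 2 together was added after seeing the data.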

Additional observations from a re-analysis of the deposited data

How the results depend on the processing

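No member was called under any alternative except Dnajb1 without a filter, which made the count of called members 1 in place of 0. Leaving out wild-type replicate 3 and knock-in replicate 2 together gave 0 called members, with Hsp90aa1 at 0.072. Library-size scaling turned Hsp90ab1 to −0.019 and Hspb7 to −0.0081. When hearts were left out, the log2 fold changes ranged from −0.077 to 0.49 for Hspa1a, −0.63 to 0.023 for Hspa1b, −0.18 to 0.16 for Hsp90aa1 and −0.056 to 0.10 for Hsp90ab1. They ranged from −0.23 to 0.067 for Hspb6 and −0.042 to 0.11 for Hspb7. Hspa8 (0.26 to 0.36), Dnajb1 (0.37 to 0.71), Hsph1 (−0.73 to −0.21) and Hspb1 (−0.38 to −0.14) kept their direction in these fits. The difference of the log2 ratio of Hsp90aa1 to Hsp90ab1 ranged from −0.14 to 0.073, the last without wild-type replicate 3, and that of the Hspa1 pair to Hspa8 from −0.54 to −0.14. The cause of these moves was not tested. No paired analysis was possible because the replicate numbers follow accession order. Depth limits Hspa1a and Hspa1b, with 9 to 42 counts per heart.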

Other observations

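Chaperones of other compartments were taken from lists for the endoplasmic reticulum and for mitochondria. Of 12 endoplasmic reticulum chaperones edgeR called 0, beside 0.297% of all tested genes, and DESeq2 called 0. In edgeR 1 was lower at an unadjusted p under 0.05 and the median log2 fold change was −0.04. Hspa5, the Hsp70 of that compartment, had 516, 647 and 676 CPM in the wild-type and 577, 662 and 673 CPM in the knock-in hearts. Sdf2l1, a partner of Hspa5, had the smallest p, at 6.62 ± 1.41 against 4.39 ± 1.08 CPM (SD, n = 3, log2 fold change −0.59 ± 0.23 SE, edgeR adjusted p = 0.425). Of 10 mitochondrial chaperones 0 were called and 0 had an unadjusted p under 0.05, with a median of −0.06, and DESeq2 called 0 as well. Hspe1, the co-chaperonin of Hsp60, stood at 152 ± 4.06 against 133 ± 13.7 CPM, without overlap (−0.20 ± 0.10, edgeR adjusted p = 0.576). Hspd1, which encodes Hsp60 and lies beside Hspe1, had −0.15 ± 0.11. Of the 82 chaperone genes in the related lists with a RefSeq window, 4 held the longer run of heat shock repeats: Hspd1, Hspe1, Dnajb6 and Chordc1. The longer run was found in 0.603% of all windows, a share by window and not by gene. Whether the neighbours Hspd1 and Hspe1 hold the same run was not checked.

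Fos and Fosb, immediate early genes that respond quickly to many stimuli, spanned a wide range between hearts. The highest heart stood 5.71 times above the lowest for Fos and 46.2 times for Fosb, against 2.88 times for Hsph1. Larger spans were found in 1.20% of tested genes for Fos and in 0.0783% for Fosb. The Fosb span rests on 5 counts in knock-in replicate 3, near the floor, against 239 in knock-in replicate 2. Fos had 23.4, 26.0 and 5.12 CPM in the wild-type and 5.92, 29.3 and 7.36 CPM in the knock-in hearts. Fosb had 4.98, 3.12 and 0.554 against 0.651, 15.7 and 0.341 CPM. Wild-type replicate 3, where Hsph1 was highest, was thus the lowest wild-type heart for Fos and Fosb, while knock-in replicate 2 was the highest of its genotype for Hspa1a, Hsph1, Fos and Fosb. Of 15 tested genes in this list 0 were called, and Atf3 had the smallest p (log2 fold change 0.83 ± 0.35, edgeR adjusted p = 0.474), with 12.8 CPM in knock-in replicate 2 against 3.81 to 5.92 CPM in the other hearts.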
